A study of Mus musculus with 30 samples.

Results

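A set of 1826 RNA polymerase II (Pol II) regions, listed by the authors as specific to microglia without Mir137, overlapped no listed region of Pol II phosphorylated at serine 5 (Ser5P) and no listed region of H3K27ac. They were chosen from the 4647 regions of the cKO Pol II list by asking for an overlap of 0 bp with the Ser5P and H3K27ac lists of both genotypes, and they make up 39.3% of that list (exact 95% interval 37.9 to 40.7%) and part of 22399 listed regions in all. The libraries came from microglia of C57BL/6J mice aged 8 weeks, with about 100000 sorted cells per genotype. Both genotypes carried the Tmem119-CreERT2 allele, which drives a tamoxifen-dependent Cre recombinase in cells that express the microglial gene Tmem119, and both received tamoxifen on 7 consecutive days. The control (cWT) was Mir137+/+ and the knockout (cKO) was Mir137 loxP/loxP. Each genotype was profiled with 5 antibodies (Pol II, Ser5P, H3K27ac, H3K4me3 and Pu.1) in 3 replicates, which gives 30 samples in 10 groups.

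Each antibody and genotype has 1 deposited list of regions, without a value per replicate, so no difference between genotypes could be tested over samples. Intervals below cover the counting of regions only. The lists are named as specific to a genotype, so a Pol II region without a listed Ser5P or H3K27ac region may still carry either signal at a level common to both genotypes. The deletion itself, the read depth and the level of any gene's RNA are not shown by region lists. In the labels' protocol, the antibodies to Pol II, Ser5P and H3K27ac share a catalogue number, and those to H3K4me3 and Pu.1 share another. The series text names ChIP-seq, and the protocol describes CUT&Tag, in which an antibody brings a transposase to the DNA beside its target.

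Pol II transcribes protein-coding genes and most microRNA genes. The tail of its largest subunit is phosphorylated at serine 5 around initiation and promoter escape, so the Ser5P form is known mostly from gene starts, while total Pol II is also found along gene bodies and at enhancers. H3K27ac marks active enhancers and promoters, H3K4me3 marks active promoters, and Pu.1 is the transcription factor that defines the myeloid lineage to which microglia belong. The microRNA miR-137 pairs with target RNAs through its seed, bases 2 to 8 of the mature strand. The mature sequence from RefSeq, printed because its gene is the one floxed in the cKO mice, lies at chr3:118433901-118433923 on the plus strand of GRCm38 and has the seed in capitals.
mmu-miR-137-3p: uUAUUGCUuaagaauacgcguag

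The members at gene starts are easiest to see in their promoters, and 5 are shown as the 250 bases before the RefSeq start (GRCm38.p6), 5′ to 3′ on the gene's strand. Capitals mark letters that match a motif on either strand, and overlapping matches each count. The motifs were the GC box, here GGGCGG, the CCAAT box, which is named for its letters, the TATA box, here TATAAA, and the core of the Pu.1 site, here GAGGAA. The others were the interferon-stimulated element, here 2 copies of GAAA with any 2 bases between them, and the match to the miR-137 seed, here AGCAATA. Irf2 is shown as the gene with the most members, Ikzf1 and Irf5 as other myeloid transcription factors, Rnf34 as the start with the lowest deposited p-value, and Tnrc6a as a partner of Argonaute, the protein that binds microRNAs.
Irf2, chr8:46739495-46739744, plus strand: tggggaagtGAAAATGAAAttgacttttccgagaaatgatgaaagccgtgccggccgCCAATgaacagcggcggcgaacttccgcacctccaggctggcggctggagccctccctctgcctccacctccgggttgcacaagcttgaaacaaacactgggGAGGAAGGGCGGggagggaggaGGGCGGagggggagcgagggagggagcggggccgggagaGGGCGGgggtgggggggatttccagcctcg
Ikzf1, chr11:11685675-11685924, plus strand: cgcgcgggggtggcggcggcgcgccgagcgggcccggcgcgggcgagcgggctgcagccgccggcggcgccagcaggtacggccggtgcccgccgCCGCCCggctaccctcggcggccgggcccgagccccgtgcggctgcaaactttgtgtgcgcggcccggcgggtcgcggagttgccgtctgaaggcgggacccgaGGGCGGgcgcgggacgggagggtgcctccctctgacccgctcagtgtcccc
Irf5, chr6:29526375-29526624, plus strand: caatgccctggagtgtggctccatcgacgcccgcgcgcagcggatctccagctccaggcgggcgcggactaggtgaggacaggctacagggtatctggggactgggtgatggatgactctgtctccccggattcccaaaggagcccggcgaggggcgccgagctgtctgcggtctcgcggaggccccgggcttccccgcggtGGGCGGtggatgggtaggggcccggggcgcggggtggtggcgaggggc
Rnf34, chr5:122849938-122850187, plus strand: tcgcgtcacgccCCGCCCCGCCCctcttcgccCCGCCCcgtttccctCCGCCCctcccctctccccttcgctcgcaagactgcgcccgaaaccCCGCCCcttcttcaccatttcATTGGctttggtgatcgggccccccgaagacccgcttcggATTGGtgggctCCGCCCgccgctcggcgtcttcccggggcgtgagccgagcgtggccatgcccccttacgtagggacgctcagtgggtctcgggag
Tnrc6a, chr7:123123635-123123884, plus strand: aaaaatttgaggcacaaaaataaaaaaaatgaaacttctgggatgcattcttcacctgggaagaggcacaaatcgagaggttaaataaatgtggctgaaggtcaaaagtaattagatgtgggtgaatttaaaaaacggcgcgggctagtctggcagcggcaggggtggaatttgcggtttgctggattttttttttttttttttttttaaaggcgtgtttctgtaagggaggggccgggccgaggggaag

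The member at the Irf2 start, chr8:46739471-46739837, covered all 250 of these bases, which hold 3 GC boxes, 1 CCAAT box, 1 Pu.1 core and 1 interferon-stimulated element. The Rnf34 window was also covered whole and holds 6 GC boxes and 2 CCAAT boxes. The members at Ikzf1 and Irf5 shared 146 and 106 bases with their windows, which hold 2 GC boxes and 1 GC box. The Tnrc6a window shared 14 bases with its member and holds none of the 6 motifs. Unlike the other 4, this start lies inside the span of its gene and away from both ends, with the member 71.2 kb from the nearer end. A match is a description of letters, not a site that was shown to be used.

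In all, 524 start windows of 478 genes overlapped a member. A GC box stood in 65.6% of these windows (exact 95% interval 61.4 to 69.7%), in 69.0% (65.9 to 71.8%) of the 976 windows overlapped by cKO Pol II regions with listed Ser5P, and in 42.6% of all 21263 windows of protein-coding genes. A TATA box stood in 5.34%, 4.10% and 11.6% of the same sets, and a CCAAT box in 39.3%, 38.0% and 35.4%. The Pu.1 core stood in 19.7%, 21.6% and 22.2%, and the interferon-stimulated element in 1.72%, 1.23% and 2.96%. The members' windows had a median GC content of 62.6% and a median of 19 CpG, against 64.0% and 20 at Ser5P regions and 55.6% and 10 over all windows. The intervals of both Pol II classes overlapped for each motif, while both classes held more GC boxes and fewer TATA boxes than all windows.

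The miR-137 seed match stood in 5 of the 524 windows (0.954%, interval 0.311 to 2.21%), in 9 of 976 with listed Ser5P (0.922%) and in 1.51% of all windows. The shares at both Pol II classes lay within each other's intervals, and that of the members includes the share of all windows. The windows lie before the start, outside the RNA made from it, so a match in them is one of letters and names no miR-137 target. The 5 windows belong to genes outside the rule for named genes. They are shown, after their letters were seen, because Mir137 is the deleted gene. Capitals mark the seed match within 27 bases, on the gene's strand except for Ndc80, where it lies on the other strand.
Ptprc, chr1:138175483-138175509, minus strand: attaaaaaggAGCAATAtttatatagt
Fuz, chr7:44896017-44896043, plus strand: acgcttggcaAGCAATActtgtcgcca
Ddx10, chr9:53248311-53248337, minus strand: tcaccatactAGCAATAagcagtgtac
Ndc80, chr17:71527067-71527093, minus strand: gacgcagccaTATTGCTgtacggaact
Cyb561a3, chr19:10577012-10577038, plus strand: tcatagcaaaAGCAATAgcaacacaaa

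Ptprc encodes CD45, a phosphatase of all white blood cells. Ndc80 is a kinetochore protein, Ddx10 an RNA helicase, and Fuz a protein of cilium assembly.

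The members lay at gene ends less often than the cKO Pol II regions with listed Ser5P, and inside genes more often. Of the 1826 members, 798 (43.7%, 41.4 to 46.0%) lay within 2 kb of either end of a protein-coding gene, against 1364 of 2394 regions with Ser5P (57.0%, 55.0 to 59.0%). The difference was -13.3 percentage points (95% Newcombe interval -16.3 to -10.2). Against the 427 regions that overlapped H3K27ac and no Ser5P, of which 49.9% lay at a gene end, it was -6.18 points (-11.4 to -0.936). Inside a gene and away from its ends lay 34.0% of members and 25.4% of regions with Ser5P, a difference of 8.56 points (5.78 to 11.3). The share at regions with H3K27ac alone was 34.2%, and the difference of -0.238 points had an interval (-5.33 to 4.63) that includes 0.

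Starts could be told from other gene ends where the RefSeq promoter table lists them, for 17492 of 21887 protein-coding genes (79.9%). Shares at starts are therefore lower bounds. Some listed starts lie inside a gene and away from both of its ends, as at Tnrc6a. Regions there were counted above as inside a gene and away from its ends (620 members in all), and are counted below at listed starts. With each member counted once, 662 (36.3%) lay within 2 kb of a listed start, 213 (11.7%) at another gene end, 543 (29.7%) elsewhere inside a gene, and 408 (22.3%) outside genes. For the regions with Ser5P the counts were 1154 (48.2%), 313 (13.1%), 505 (21.1%) and 422 (17.6%). The members were thus lower at listed starts by 11.9 points (difference -11.9, -14.9 to -8.95), yet listed starts were still the most frequent of the 4 places.

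**Figure D1:**
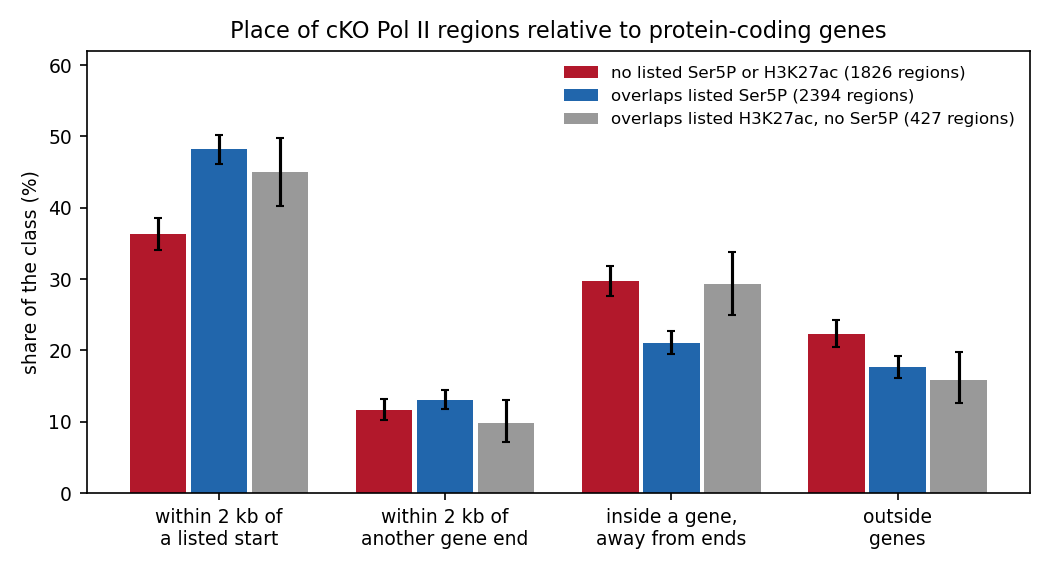
Share of cKO Pol II regions (y axis, %) in each of 4 places relative to protein-coding genes (x axis), for the 1826 members (red), the 2394 regions with listed Ser5P (blue) and the 427 with H3K27ac and no Ser5P (grey); lines are exact 95% intervals. Members sit at 36.3% at listed starts against 48.2% with Ser5P, and at 29.7% inside genes against 21.1%.

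The values that the authors deposited with each region come from the same list as the rule and are given only as a description. Members had a median width of 334 bp (quartiles 283 and 435), against 374 bp with Ser5P and 323 bp with H3K27ac alone. Their median deposited signal was 11.5, against 13.4 and 10.4, and their median deposited p-value 0.839, against 0.726 and 0.865. A deposited p under 0.05 was given for 7 of 1826 members, in a list where 0.366% of regions (17 of 4647) have one, and an adjusted p under 0.05 for 1 member. Nearly all members thus have a deposited p-value far above usual thresholds, and the sources used here do not say what that p-value tests.

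Within the members, the gene-end share moved with the deposited p-value. It was 71.3% (62 of 87, 60.6 to 80.5%) at p under 0.3, 54.6% (131 of 240) from 0.3 to 0.6, 47.1% from 0.6 to 0.8, 40.8% from 0.8 to 0.9 and 34.8% (195 of 560, 30.9 to 38.9%) over 0.9. The same shares for regions with Ser5P were 58.8%, 60.1%, 60.3%, 53.1% and 49.9%. Members were therefore below regions with Ser5P in the bins above 0.6, and the intervals overlapped in those under it. By width, members at a gene end made up 41.1% under 300 bp, 41.7% from 300 to under 450 bp and 51.3% at 450 bp or more, against 59.0%, 54.3% and 59.1% with Ser5P. The part of width and of the deposited p-value in the difference at gene ends was not tested beyond these bins.

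**Figure D2:**
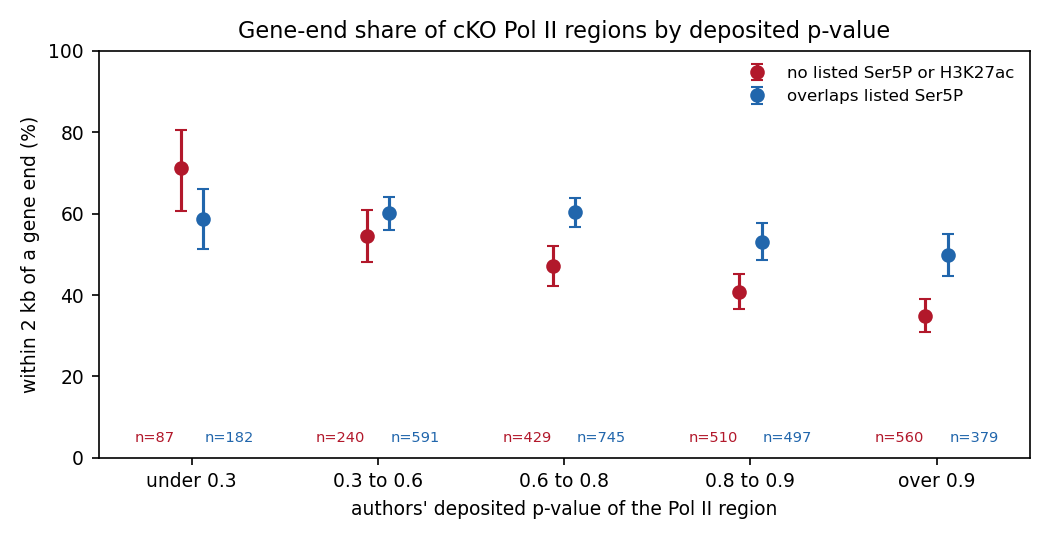
Share of cKO Pol II regions within 2 kb of a gene end (y axis, %) in 5 bins of the authors' deposited p-value (x axis), for members (red) and regions with listed Ser5P (blue), with exact 95% intervals and the number of regions per point. Members go from 71.3% in the lowest bin to 34.8% in the highest, and regions with Ser5P from 58.8% to 49.9%.

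The median distance from a member to the nearest region of either excluding kind was 16.2 kb (quartiles 5.44 and 45.9). To the nearest listed Ser5P region of either genotype it was 39.7 kb (quartiles 12.6 and 119), and to the nearest H3K27ac region 32.8 kb (10.4 and 88.3). Of the members, 210 (11.5%) lay within 1 kb of either kind and 695 (38.1%) within 10 kb. The 5 nearest were assigned to Ifngr2 (a subunit of the interferon gamma receptor) and Reep3, both at 0 bp from a Ser5P region, Adam3 and Stam2 at 1 bp from one, and Ankrd54 at 2 bp from an H3K27ac region. Just across the boundary stood regions that shared 1 base with a listed region at Btbd10 (Ser5P), Aggf1 (H3K27ac) and an unassigned site (Ser5P), 2 bases at Rreb1 and 5 bases at Cfap221 (both Ser5P). The just-inside regions had deposited signals from 11.7 at Reep3 to 20.6 at Adam3, and the just-outside ones from 9.34 at Aggf1 to 21.8 at Btbd10. Membership near the boundary thus turned on a few bases. The list also holds 118 pairs of touching regions, each pair with 1 shared signal value. Of the members, 79 touched another region of the list, and 17 of these touched one that was excluded.

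**Figure D3:**
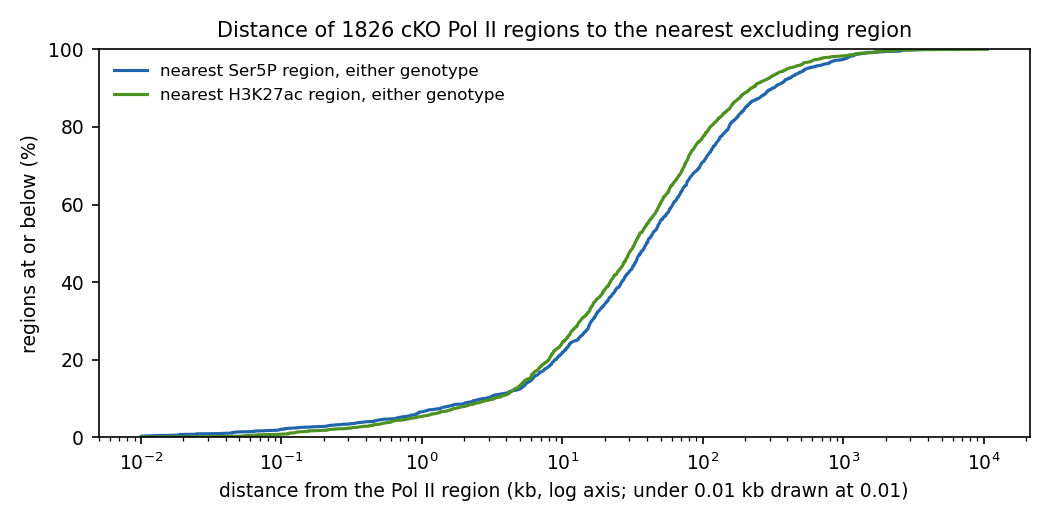
Share of the 1826 members (y axis, %) that have a listed Ser5P (blue) or H3K27ac (green) region of either genotype at or below a given distance (x axis, kb, log scale). The curves pass 21.9% and 24.5% at 10 kb, and 70.9% and 77.4% at 100 kb.

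The rule split the cWT Pol II list in nearly the same proportions. Of its 394 regions, 152 (38.6%, 33.7 to 43.6%) overlapped no listed Ser5P or H3K27ac region, 206 (52.3%) overlapped Ser5P and 36 (9.14%) H3K27ac alone. In the cKO list the shares were 39.3%, 51.5% and 9.19%. Each cKO share lay within the interval of the cWT one, while the members numbered 1826 against 152. For both Pol II lists, most Ser5P overlaps were with cKO regions and most H3K27ac overlaps with cWT regions, in differing proportions. The sizes of the Ser5P and H3K27ac lists enter the counts that follow and were not accounted for. Of the cKO Pol II regions with Ser5P, 2378 overlapped mostly a cKO Ser5P region and 16 a cWT one, and of those with H3K27ac, 691 met a cWT region and 91 a cKO one. The cWT Pol II regions met 191 cKO and 15 cWT Ser5P regions, and 54 cWT and 14 cKO H3K27ac regions.

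Few members overlapped the lists that the rule did not use. A Pu.1 region of either genotype was met by 66 members (3.61%, 2.81 to 4.58%), 64 of them in the cKO list, and by 98 regions with Ser5P (4.09%). The difference of -0.479 points has an interval (-1.64 to 0.721) that includes 0. An H3K4me3 region was met by 107 members (5.86%, 4.83 to 7.04%), against 207 regions with Ser5P (8.65%) and 49 with H3K27ac alone (11.5%). These differences were -2.79 points (-4.34 to -1.21) and -5.62 points (-9.13 to -2.69). Of the 107, 72 met a cKO and 35 a cWT H3K4me3 region. Only 3 members met both Pu.1 and H3K4me3, and 1656 met neither.

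The 2 kinds of overlap stood in different places. Pu.1 regions were met by 6 of the 662 members at listed starts (0.906%, 0.333 to 1.96%), by 32 of 543 inside genes (5.89%, 4.07 to 8.22%) and by 23 of 408 outside genes (5.64%, 3.61 to 8.34%). H3K4me3 regions were met by 69 of 662 at listed starts (10.4%, 8.20 to 13.01%), by 7 of 543 inside genes (1.29%, 0.520 to 2.64%) and by 12 of 408 outside genes (2.94%). For regions with Ser5P, Pu.1 was met at 1.39% of starts, 7.13% inside genes and 8.29% outside them, and H3K4me3 at 13.6%, 2.38% and 4.502%. At other gene ends, Pu.1 was met by 5 of 213 members (2.35%) and H3K4me3 by 19 of 213 (8.92%), against 3.51% and 6.07% with Ser5P. There the H3K4me3 share was higher in members, with overlapping intervals (5.46 to 13.6% and 3.69 to 9.32%). The H3K4me3 intervals of both classes also overlapped at listed starts.

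Among the members on Pu.1 regions with the lowest deposited p-values were one 36.6 kb from Ier5, an immediate early gene (chr1:155059437-155060073), and one inside Cdk6, a kinase of the cell cycle, at a listed start (chr5:3344226-3344655). Others lay inside Acap2, an Arf GTPase-activating protein, inside Lipe, the hormone-sensitive lipase, and inside Map3k9, a MAP kinase kinase kinase. The member inside Lyn at chr4:3682961-3683353 shared 281 bases with a cKO Pu.1 region. At Tlr4, the lipopolysaccharide receptor, a member 0.123 kb from a gene end (chr4:66827401-66827946) shared 453 bases with one and lay 0.834 kb from a cKO H3K27ac region.

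The members on H3K4me3 regions with the lowest p-values were mostly at gene ends. Rab5a, a GTPase of early endosomes, H1f4, a linker histone, Ppfia3 (liprin alpha) and Fbxl19, a CpG island binding protein, had them at a listed start on a cWT H3K4me3 region. Mcm4, a subunit of the replicative helicase, Ccnh, the cyclin of the kinase that phosphorylates serine 5 of the Pol II tail, and Tmem38b had them at a gene end on a cKO region. Ube2v2 and Zbtb10 had them at a gene end on a cWT region. The Ccnh member (chr13:85189437-85189939, signal 20.3, p 0.239) was 857 kb from the nearest listed Ser5P region, and the H1f4 member (chr13:23622137-23622539) had a signal of 30.9 and a p of 0.0696.

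The member with the lowest p-value had the list's values at another scale. It lay outside genes at chr3:149052452-149052991, 63.6 kb from the nearest end of Adgrl2, the adhesion receptor latrophilin 2, with a deposited p of 3.40e-07, an adjusted p of 0.000509 and a signal of 62.1. A cWT H3K4me3 region with a signal of 51.1 and a p of 0.000142 shared 535 of its 540 bases. Rnf34, a ubiquitin ligase, followed with a member of 1162 bp across its start (chr5:122849683-122850844, signal 22.5, p 0.000709), 164 kb from listed Ser5P. The next were near Tex44 (p 0.0217), inside Nfia, a nuclear factor of glial and other lineages (p 0.0252), at the start of Cyp2r1, the vitamin D 25-hydroxylase (p 0.0375), at the start of Slc25a5, a mitochondrial ADP/ATP carrier (p 0.0480), and inside Trio, a guanine nucleotide exchange factor, though nearer to an end of Gm29975 (p 0.0486). These 7 are all the members with a deposited p under 0.05. Tuba1a, Jkamp and Ttc14 stood just above it, at 0.05004, 0.0507 and 0.0530.

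Each member was assigned to the protein-coding gene with the end nearest to its midpoint, within 100 kb, which placed 1731 members on 1515 genes (6.92% of 21887) and left 95 unassigned. Of these genes, 1335 had 1 member, 156 had 2 and 24 had 3 or more. Their median length was 32.03 kb, against 17.17 kb for all protein-coding genes, and longer genes offer more room for regions inside them.

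Absence of Ser5P from the region was often not absence from the gene. Of the 1515 genes, 580 (38.3%) had a cKO Ser5P region assigned elsewhere, against 20.3% of all protein-coding genes, and 932 (61.5%) had none of either genotype. The contrast depends on the assignment: within 10 kb the shares were 23.8% of members' genes and 17.0% of all genes, and by gene span 31.4% and 15.3%. A cWT H3K27ac region was assigned to 608 (40.1%), against 19.6% of all genes. Neither mark was listed at 649 genes (42.8%), and at 1166 genes (77.0%) each cKO Pol II region was a member. The latter holds for any gene whose sole cKO Pol II region is a member, and 1335 of the genes had only 1 member. For these last counts no share over all genes was computed, so they only describe the set.

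Irf2, a transcription factor of the interferon response, had the most, 6 members of 8 cKO Pol II regions. They lay at its start, inside its span at 25.4, 38.7 and 49.7 kb from the nearer end and at 2.48 kb from the far end, and 5.03 kb beyond it. Their deposited signals were 8.05, 8.10, 8.30, 14.0, 13.8 and 10.4, and their p-values ran from 0.582 to 0.959. The start member, whose promoter is printed above, lay 1.02 kb from a cKO Ser5P region, and that Ser5P region overlapped another cKO Pol II region, which is not a member. The member at chr8:46778310-46778655 also shared 226 bases with a cKO Pu.1 region.

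Lyn, a Src-family kinase of immune receptor signalling, had 5 cKO Pol II regions, all of them members and all inside the gene, at signals of 6.70 to 9.51 and p-values of 0.794 to 0.956. They lay 16.2 to 33.3 kb from the nearest Ser5P region and 55.7 to 136.7 kb from the nearest H3K27ac region. Lyn thus had no listed Pol II region with Ser5P or H3K27ac, although 1 cKO Ser5P region lay between its members.

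Rcsd1, a regulator of actin capping, had 5 members of 7 cKO Pol II regions, with signals of 5.40 to 19.2. The 2 members outside its span lay 0.096 and 0.377 kb from a cKO Ser5P region, and the 3 inside it 1.497, 4.77 and 15.4 kb. Apbb1ip, an adaptor between Rap1 and integrins, had 5 of 6, of which 3 lay inside the gene and 1 outside it overlapped a cWT H3K4me3 region. Tns3, a tensin of focal adhesions, had 5 of 7, with 1 at its start and 4 inside, 7.22 to 138 kb from Ser5P. These genes joined the actin and adhesion genes Ezr (ezrin) and Ssh2 (a cofilin phosphatase), which had 3 members each, in each case with 2 of the 3 touching each other.

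**Figure D4:**
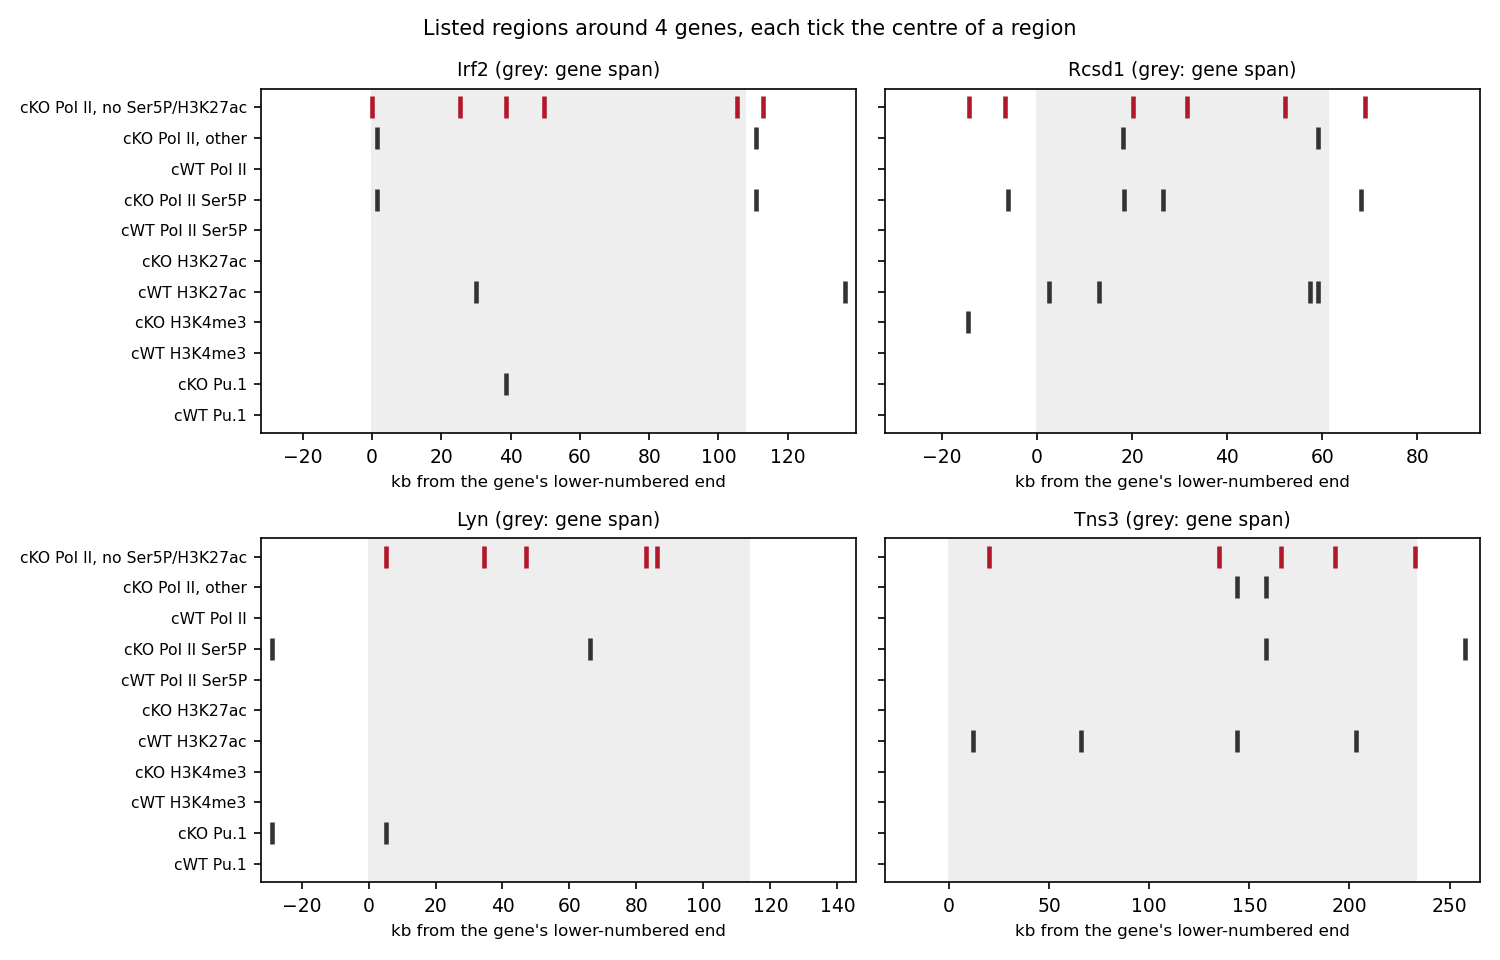
Centres of listed regions around Irf2, Rcsd1, Lyn and Tns3 as distance from the gene's lower-numbered end (x axis, kb), 1 row per list (y axis), with members in red and the gene span in grey. All 5 Lyn members lie inside the gene, and the excluded cKO Pol II region near the lower end of Irf2 shares its place with a cKO Ser5P region; red ticks beyond the grey spans include a member assigned to a neighbouring gene.

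Fam72a had 4 members, but 2 of these lay inside Srgap2, a GTPase-activating protein next to it. Further genes with 3 members, ranked by their lowest deposited p, were Tuba1a, Trib1, Cdk6, Fyb, Zfp608, Mapkapk2, Clvs1, Lcp2, Zdhhc14, Cradd, Ikzf1 and Sfi1. Fyb and Lcp2 encode adaptors of immune receptor signalling, and Mapkapk2 a kinase downstream of p38. All 3 Fyb members lay inside the gene, 1 of them 0.026 kb from a cWT H3K27ac region. The Lcp2 members lay at its start, inside it and 15.4 kb outside it, the last on a cKO Pu.1 region. The Trib1 members lay 72.1 to 87.8 kb from the gene, and 2 of them touched each other. At Tuba1a and at Clvs1, too, 2 of the 3 members touched each other, and all 3 lay outside genes. Ikzf1, which encodes the lymphoid and myeloid factor Ikaros, had 1 at its start, 1 inside on a cKO Pu.1 region and 1 outside, at signals of 11.5, 6.72 and 9.73.

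Gene lists were read by how many of their genes had a member, beside 6.92% of all protein-coding genes, and by how many of their cKO Pol II regions were members, beside 38.9% (1731 of 4450) over all assigned regions. Genes with any cKO Pol II region made up 16.1% of protein-coding genes. Of the 12 defining microglia markers, 7 had a member, among them P2ry12, P2ry13, Cx3cr1, Siglech, Gpr34 and Csf1r, and these 7 were also all of the 12 with a cKO Pol II region. The marker Tmem119 was among the 5 without.

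Homeostatic microglia genes had a member at 13 of 34 (38.2%, 22.2 to 56.4%), and 16 of their 26 cKO Pol II regions were members (61.5%, 40.6 to 79.8%). Any cKO Pol II region was assigned to 16 of the 34 (47.1%), against 16.1% of all protein-coding genes. A cKO Ser5P region was assigned to 21 (61.8%), against 20.3%, so a high share was not particular to members. P2ry12, the ADP receptor that guides microglial processes, had a member at its listed start (chr3:59263877-59264165, signal 10.6), 0.642 kb from a cKO Ser5P region. Its neighbour P2ry13 had one at its listed start too (signal 11.1), and both lie within the span of Med12l. Gpr34, a lysophosphatidylserine receptor, was assigned a member of signal 23.3 that lies inside Cask, 15.8 kb away. Cx3cr1, the fractalkine receptor, had one 2.27 kb beyond its end. The member near Csf1r, the receptor that microglia need to survive, lay outside the gene and 0.005 kb from a cKO Ser5P region. Entpd1 (CD39), which breaks down extracellular ATP, had 3 of 4, and Itgb5, an integrin subunit, 2 of 3.

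Myeloid transcription factors had a member at 15 of 30 (exact 95% interval 31.3 to 68.7%), with 27 of 51 regions members (52.9%, 38.5 to 67.1%). Here too the list was high for any cKO Pol II region, at 22 of 30 (73.3%), and for cKO Ser5P, at 23 of 30 (76.7%). Beside Irf2 and Ikzf1, Runx1 had 3 of 4 and Irf5 2 of 2, with no cKO Ser5P region assigned to Irf5. The Irf5 members lay 1.81 kb before it and at its start, with signals of 11.7 and 6.98. Genes of phagocytosis and lysosomes had one at 10 of 30 (33.3%), with 13 of 22 regions members (59.1%, 36.4 to 79.3%). Scarb2, a lysosomal membrane protein, had 2 of 2, of which 1 at its start had a signal of 15.1. Lgmn, a lysosomal protease, and Itgb2, the beta subunit of complement receptor 3, also had 2 of 2.

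AP-1 and immediate early genes had a cKO Pol II region at 15 of 23 but a member at 5 (21.7%), and 9 of their 31 regions were members (29.0%, 14.2 to 48.0%). Fos had 2 of 4, Myc 2 of 4, Ier5 2 of 3 and Nr4a1 2 of 2. Cytokine and NF-kB genes had a member at 6 of 35 (17.1%), and 7 of 24 regions were members (29.2%, 12.6 to 51.1%). The intervals of both lists include the 38.9% over all assigned regions. Il10ra had 2 of 3, 1 of them 0.004 kb from a cKO Ser5P region. Ccl2 had 1 of 3, 0.006 kb from a gene end that has no listed start, so start and far end were not told apart there. Of the 18 lists, the homeostatic one had the sole interval for the share of regions that lies above 38.9%, and no list was tested against another.

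Chromatin remodellers and modifiers had one at 8 of 34 (23.5%), with 2 each at Arid1a, Chd7 and Chd9. Genes of Pol II pausing and elongation had one at 6 of 36 (16.7%), namely Ccnh, Cdk9 (the kinase of the elongation factor P-TEFb), Ell, Aff1, Ccnt2 and Rprd1b, of which 5 had no Ser5P region assigned. The Cdk9 member lay 2.42 kb outside the gene and 1.39 kb from a cKO Ser5P region. Argonaute and microRNA genes had one at 4 of 14 (28.6%), namely Ago2, Ago3, Tarbp2 and Tnrc6a. The Ago3 member lay at a listed start (signal 19.3, p 0.981), and the Ago2 member inside the gene (signal 13.01). The Tarbp2 member lay inside the span of Map3k12. By regions, members made up 11 of 34 for the chromatin list (32.4%, 17.4 to 50.5%). They made up 6 of 12 for pausing (21.1 to 78.9%) and 4 of 11 for Argonaute (36.4%, 10.9 to 69.2%). Each interval includes the 38.9% over all assigned regions. A cKO Pol II region was assigned to 61.8%, 30.6% and 64.3% of these genes, against 16.1% of all protein-coding genes. Their median lengths were 84.8, 28.2 and 54.2 kb, against 17.17 kb for all protein-coding genes.

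Disease-associated microglia genes were near the background, at 2 of 30 (6.67%, Abca1 and Axl), as were interferon response genes at 1 of 28 (3.57%, Ifitm3), ribosomal protein genes at 2 of 30 (6.67%, Rpl27 and Rpl18) and genes of oxidative phosphorylation at 3 of 28 (10.7%, Ndufs1, Uqcrc2 and Sdhb). The ribosomal list had a cKO Pol II region at 12 of 30, and 2 of its 13 regions were members (15.4%, 1.92 to 45.4%). Markers of other cells had a member at 1 of 18 for neurons (Celf4), 1 of 12 for astrocytes (Slc1a3), 1 of 13 for the oligodendrocyte lineage (Mbp), 2 of 12 for endothelial and mural cells (Kdr and Pecam1) and 1 of 18 for other macrophages and blood cells (Mrc1). With assignment limited to 10 kb, when 4.79% of all genes have a member, the homeostatic list fell to 6 of 34, the myeloid transcription factors to 11 of 30, and the markers of other cells from 6 of 73 to 1. By gene span, when 4.77% of all genes have one, these counts were 6 of 34, 8 of 30 and 6 of 73.

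**Figure D5:**
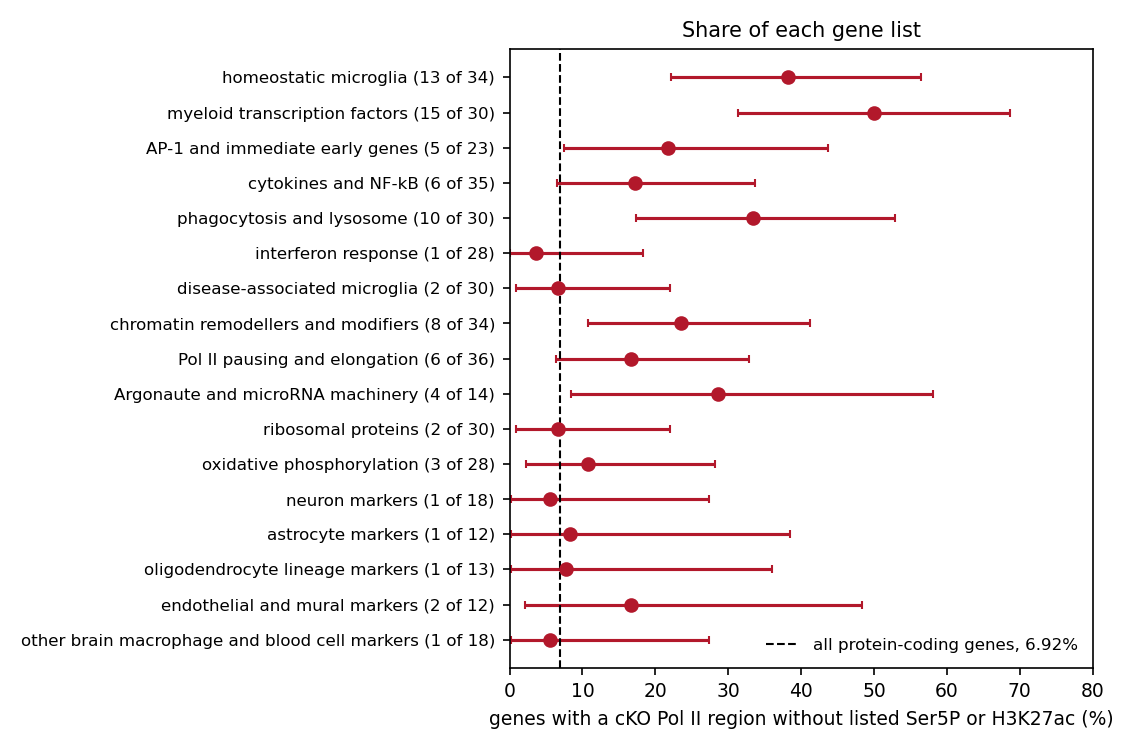
Share of the genes of each of 17 lists that have a member assigned within 100 kb (x axis, %; y axis, lists with their counts), with exact 95% intervals and a dashed line at the 6.92% of all protein-coding genes. Myeloid transcription factors (15 of 30) and homeostatic microglia genes (13 of 34) stand highest. With any cKO Pol II region, not drawn, their counts were 22 of 30 and 16 of 34.

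By chromosome, members made up between 35.2% and 43.6% of the cKO Pol II regions on the autosomes and 28.1% on chromosome X (27 of 96). Chromosome X held 1.48% of members and 2.59% of regions with Ser5P, a difference of -1.11 points (-1.96 to -0.240). Gpr34 and Slc25a5 are among the genes with these 27 members.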

How the data were processed

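The 30 samples, grouped by their titles, are represented by 10 deposited lists, 1 per antibody and genotype, with no value per replicate. Whether the 3 replicates of a group are separate mice is not stated. For each region the authors deposited 4 values: a score, a signal, and a p-value as given and after adjustment. The deposited score equals 125 times the negative log2 of the deposited p-value, up to a cap of 1000. The deposited signal is on an unstated scale and was compared only within a list. Per the submitters' processing notes, the tools were HOMER 4.11, Bowtie2 2.4.4, bedtools 2.30.0 and MACS2 2.2.7.1, on GRCm38 or mm10. The sources used here give neither their roles nor the step that made a region specific to a genotype. Depth is unknown.

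Overlap meant at least 1 shared base. Positions are mm10, counted from 1. Gene ends and the 250 bases before starts came from RefSeq tables of GRCm38.p6, with 21887 protein-coding genes, and 766 of 766 opposite-strand windows that shared bases were reverse complements there. Shares have exact Clopper-Pearson and differences Newcombe intervals of 95%. Regions are not replicates, so no p-value was computed. The members, the 18 gene lists (448 symbols, all matched) and the settings were chosen with earlier results of these data known. Named genes were the 20 with the most members, the 10 members with the lowest p, up to 10 each on Pu.1 and H3K4me3 regions, up to 4 genes per list and 5 regions on each side of the rule. Of these, 1 list and some genes are not reported here. Other genes named, such as the remaining microglia markers and list members, were chosen after their values were seen. The scripts ran on Python 3.11.15 with scipy 1.17.1, numpy 2.4.6, matplotlib 3.10.9 and pandas 2.3.3. The functions for overlap, gene ends, gene spans and gene assignment were tested on simulated data, and those for confidence intervals were not.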

Additional observations from a re-analysis of the deposited data

How the results depend on the processing

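No paired analysis was possible because the lists hold no replicate values, and for the same reason no replicate could be left out. The share of members in the cKO Pol II list, 39.29%, became 34.78% when Ser5P or H3K27ac within 1 kb also excluded, 30.81% in regions at or below the median deposited p-value, 48.48% when only the Ser5P lists excluded, 47.67% when only the cKO lists did, and 36.55% without regions under 300 bp. The gene-end share, 43.7%, became 38.44% with a 1 kb window, 51.48% with 5 kb and 52.51% in regions at or below the median p-value. At listed starts alone, some of them away from gene ends, it was 36.25%. The share inside genes, 33.95%, became 37.02%, 28.42% and 26.12% with the 1 kb window, the 5 kb window and regions at or below the median p-value. Counting regions within 1 kb, Pu.1 rose from 3.614% to 4.874% and H3K4me3 from 5.86% to 8.215%. The share of members' genes with a cKO Ser5P region, 38.28%, became 31.45% by gene span, 34.72% with exclusion within 1 kb and 23.83% with assignment within 10 kb. Of the list genes, 86 had a member, 62 by gene span and 53 within 10 kb. In total 30 of 48 values under alternatives stayed within the 95% interval of the reported share (for the list genes, within 1.5 times the count), including those with touching Pol II regions joined, a setting chosen after seeing the data.

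Against the regions with Ser5P, the gene-end difference lay between -13.8 and -7.39 points under the alternatives run, each interval below 0. The bins of deposited p-value were not among these alternatives. In the bin of p under 0.3 the members' gene-end share was the higher, 71.3% against 58.8%, with overlapping intervals, and in the other bins it was the lower. The H3K4me3 difference in regions at or below the median p-value was -2.28 points (-4.55 to 0.219), an interval that includes 0, and each interval for Pu.1 included 0. Causes were not tested. The number of regions sets the precision, and read depth is unknown.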
